A study of Homo sapiens with 5 samples.

Results

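The genes described here are 10 members of the integrated stress response: the 4 kinases EIF2AK1 (HRI), EIF2AK2 (PKR), EIF2AK3 (PERK) and EIF2AK4 (GCN2), the transcription factors ATF4, ATF5 and DDIT3 (CHOP), the phosphatase subunits PPP1R15A (GADD34) and PPP1R15B (CReP), and the pseudokinase TRIB3. They were chosen by symbol and stand among 19974 protein-coding genes of chromosomes 1 to 22 and X in RefSeq GRCh38.p14. For each of them, every called transcription start site inside the gene or within 5 kb of it was taken, which gave 39 of 28159 calls on those chromosomes. No further call lay between 5 and 10 kb from a member.

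The calls came from PRO-seq, in which polymerases already engaged on DNA extend their RNA in isolated nuclei with biotin-labelled nucleotides, so that the sequenced RNA is nascent. All 5 libraries of the series were made from HUDEP-2, an immortalised human line of erythroid progenitors. There were 2 wild-type libraries. The other 3 came from clones grown from single cells after sg1617 editing: one had gained 1 bp, one had lost 13 bp and one had lost 15 bp, so that each edit was seen in a single clone. The deposited lists of calls, 1 per strand, were headed by the name of 1 HUDEP-2 alignment, which is the title of no sample. It is not known which libraries, wild-type or edited, gave the calls. The lists had no column per library. Levels, replicate error and any effect of the edits could therefore not be measured, and the sequencing depth and the reads supporting each call are unknown. All 10 erythroid marker genes in a list of defining genes, among them HBB, ALAS2 and GATA1, had a call at their start, against 0 of 24 lymphoid, myeloid, megakaryocyte, hepatocyte, neuronal and fibroblast markers.

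In the integrated stress response, the kinases phosphorylate the translation factor eIF2, which lowers protein synthesis in general while the mRNAs of ATF4 and a few other genes are translated more. HRI is the kinase that senses haem shortage and is abundant in erythroid cells, where it holds globin synthesis to the supply of haem. PKR responds to double-stranded RNA, PERK to unfolded protein in the endoplasmic reticulum and GCN2 to uncharged tRNA. ATF4 induces DDIT3, TRIB3 and PPP1R15A, and the PPP1R15A protein directs a phosphatase back to eIF2 and closes the loop. HRI and ATF4 have also been placed upstream of BCL11A, whose erythroid enhancer is the target of sg1617.

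All 10 members carried a promoter call, here a call on the gene strand within 500 bp of the annotated outer start of the gene. Over all protein-coding genes the share was 41.6% (8315 of 19974, Wilson 95% interval 40.9 to 42.3%). The interval covers counting over genes only and carries no error between libraries. With a window of 100 bp, 8 of the 10 members were called, against 36.9% of all genes, and the members lost were ATF5 and TRIB3. With 1000 bp all 10 were called against 43.9% of genes, with any listed start all 10 against 44.8%, and with any gene-strand call in the gene or 500 bp upstream all 10 against 49.4%. The genes were chosen with earlier results of these data known, so no test was made of the count.

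**Figure D1:**
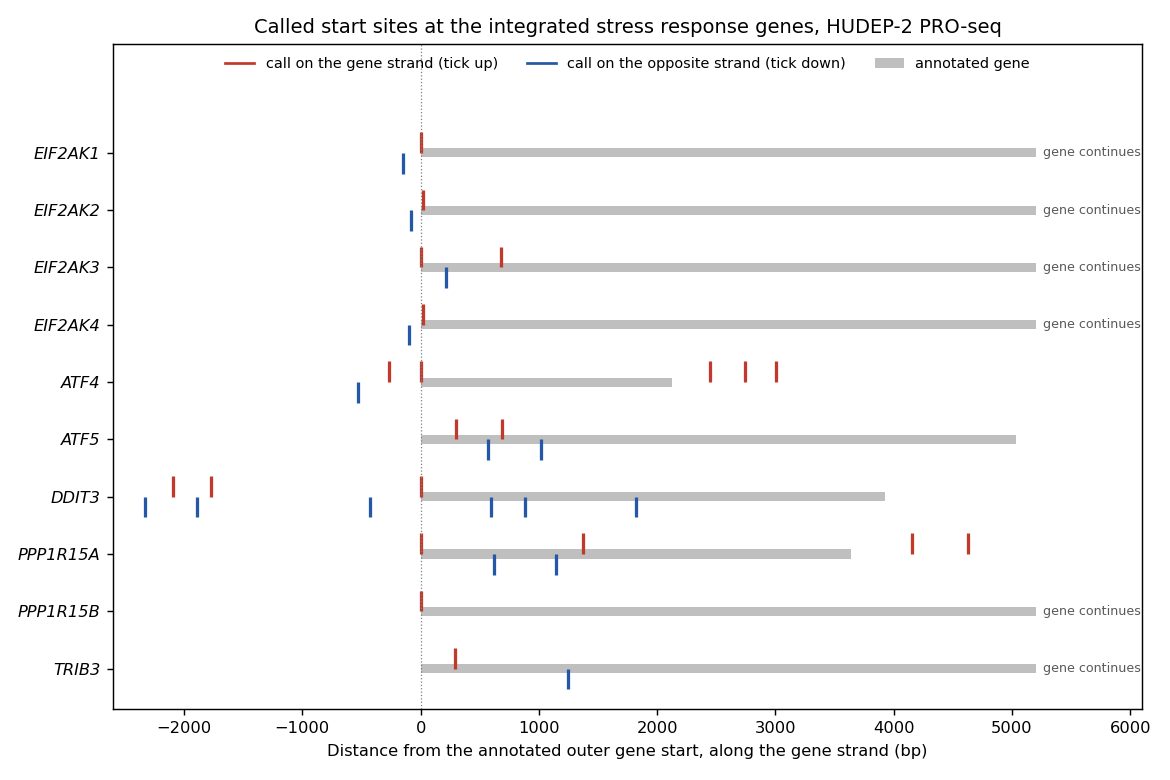
Called start sites at the 10 members, one row per gene, by distance in bp from the annotated outer start along the gene strand. Red ticks point up for calls on the gene strand, blue ticks point down for the opposite strand, and the grey bar is the annotated gene. EIF2AK1, EIF2AK2 and EIF2AK4 show 1 pair of calls at the start and PPP1R15B a lone call, whereas ATF4 and PPP1R15A have 3 and 2 gene-strand calls past the gene end. A pair of calls of EIF2AK4 more than 100 kb from its start is off the scale.

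The sequences around the starts are shown first, because the position of a call within them is the measurement. They are RefSeq sequences of GRCh38.p14, given 5′ to 3′ on the gene strand in lower case. Capitals mark the called base and the exact matches to the motifs described further on. In PPP1R15B the called base lies within such a match and is the T that follows GCCA. Windows of 130 bases run from 100 bases before the listed start to 29 after it.
EIF2AK2, chr2:37156951-37157080, reverse strand: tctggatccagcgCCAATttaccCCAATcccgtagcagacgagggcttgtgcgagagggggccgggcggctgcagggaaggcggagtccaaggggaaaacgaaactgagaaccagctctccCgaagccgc
EIF2AK4, chr15:39934015-39934144, forward strand: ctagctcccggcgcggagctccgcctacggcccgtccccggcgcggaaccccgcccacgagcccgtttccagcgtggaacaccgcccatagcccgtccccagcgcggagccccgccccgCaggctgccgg
ATF4, chr22:39520459-39520588, forward strand: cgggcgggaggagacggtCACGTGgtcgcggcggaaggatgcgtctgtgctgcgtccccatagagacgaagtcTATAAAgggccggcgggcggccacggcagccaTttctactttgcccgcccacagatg
DDIT3, chr12:57520488-57520617, reverse strand: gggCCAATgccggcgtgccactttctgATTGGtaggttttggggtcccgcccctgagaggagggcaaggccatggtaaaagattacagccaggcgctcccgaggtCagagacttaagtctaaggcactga
PPP1R15A, chr19:48872321-48872450, forward strand: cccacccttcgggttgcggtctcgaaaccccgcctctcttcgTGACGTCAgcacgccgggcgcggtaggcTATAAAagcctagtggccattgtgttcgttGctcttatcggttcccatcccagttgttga
PPP1R15B, chr1:204411788-204411917, reverse strand: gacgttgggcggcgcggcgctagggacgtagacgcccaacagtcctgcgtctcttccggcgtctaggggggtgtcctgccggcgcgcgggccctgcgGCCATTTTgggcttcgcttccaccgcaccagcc
For the members whose call was not at an outer start listed in the promoter table, only 30 bases holding the called base are given.
EIF2AK3, chr2:88627459-88627488, reverse strand: tgctcaatgggcgatgtccgagatAggctg
ATF5, chr19:49929180-49929209, forward strand: tgtccccagtccccggggccgcctCattcc
TRIB3, chr20:381045-381074, forward strand: ggcagggctGgagctgggctgggatcccga
In these 9 windows the called base was C in 4, and in 3 of them (EIF2AK4, ATF5 and DDIT3) it was followed by A. The classical initiator has such a CA pair with the A as the first base of the RNA. Over 4017 forward calls from 100 bases before to 40 after a listed start, 32.8% had CA with the C at the called base, against 1.62% with the A there. Over 3820 reverse calls the shares were 34.8% and 1.36%. The calls thus lay on both strands 1 base upstream of where this motif puts the start, and offsets given here were not shifted for it.

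The kinase genes had few calls beyond their starts. EIF2AK1, which encodes HRI, lies on chromosome 7 from 6022247 to 6059175 and carried a reverse call at 6059175, the outermost annotated base of the gene, an offset of 0 bp. Its strand was taken from the end at which it was called. A forward call at 6059323 lay 148 bp away in the divergent position, on the other side of the start. These 2 calls were the only ones in and around the 36.9 kb gene: 0 calls lay deeper in the body or past its end.

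EIF2AK2 (chromosome 2, 37099210 to 37156980, reverse strand) and EIF2AK4 (chromosome 15, 39934115 to 40035591, forward strand) had the same arrangement. The EIF2AK2 call at 37156959 lay 21 bp downstream of the listed start, with a forward call at 37157061, 102 bp from it. The EIF2AK4 call at 39934134 lay 19 bp downstream, with a reverse call at 39934016, 118 bp from it. Past the right-hand end of EIF2AK4, 2 calls belonged to neighbours. The one at 40039129 lay 52 bp downstream of a start of SRP14, which encodes a subunit of the signal recognition particle. The one at 40039296 lay 15 bp upstream of the start of the non-coding gene SRP14-DT.

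EIF2AK3, which encodes PERK (chromosome 2, 88556741 to 88628145, reverse strand), was the kinase gene with more than 1 start. Its reverse calls at 88628145 and 88627464 matched the outer end of the gene and the start in the promoter table, 681 bp apart, each at an offset of 0 bp. A forward call at 88627931 lay between them, 102 bp downstream of the start of EIF2AK3-DT, the divergent non-coding gene. That call was divergent from the inner EIF2AK3 call at 467 bp and faced the outer one, a convergent pair 214 bp apart.

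Among the transcription factor genes the patterns were denser. ATF4, the main effector of the response, spans only 2128 bp (chromosome 22, 39520559 to 39522686, forward strand) and had 6 calls within 5 kb, 5 of them on its own strand. The call at 39520564 lay 5 bp downstream of the outer start and 2 bp downstream of a second listed start. Another forward call at 39520291 lay 268 bp upstream of the gene, where no start is listed. A reverse call at 39520026 was 265 bp from this upstream call and 538 bp from the call at the annotated start. No call lay deeper in the gene, but 3 forward calls followed it, at 321, 620 and 881 bp past its end. The gaps between them were 299 and 261 bp. No other listed start lay within 500 bp of these 3 calls.

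ATF5, a relative of ATF4 whose mRNA is also translated under stress, lies on chromosome 19 from 49928906 to 49933935 on the forward strand. The forward call nearest to its outermost annotated start, at 49929204, was 298 bp downstream of that start but only 1 bp upstream of the start listed at 49929205. The third listed start, 49930245, had no forward call within 500 bp. The other calls of ATF5 lay where the gene overlaps the start of NUP62, a nuclear pore gene on the opposite strand that shares its listed start with IL4I1. A reverse call at 49929476 lay 28 bp downstream of that start, and another at 49929926 lay 422 bp upstream of it. A forward call at 49929594 was 118 bp from the first of these in the divergent position. It lay inside ATF5, 389 bp downstream of the start at 49929205, so whether it belongs to ATF5 or is the antisense partner of NUP62 was not resolved by position.

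DDIT3, which encodes the pro-apoptotic factor CHOP, lies on chromosome 12 from 57516588 to 57520517 on the reverse strand and had the most calls of the members, 9 within 5 kb. Only 1 of them lay at its own start: the reverse call at 57520512, 5 bp downstream of the outer start and 2 bp downstream of a second listed one. The same call lay 32 bp upstream of the start of LOC128125814, a protein-coding entry on the same strand within DDIT3, so the call cannot be assigned to one of them by position. Inside the gene, 3 forward calls ran against it, at 57519924, 57519635 and 57518693, that is 593, 882 and 1824 bp from the outer start. No other listed start lay within 500 bp of them. Upstream lies MBD6, a methyl-CpG-binding domain gene on the forward strand. Forward calls at 57520948 and 57522850 lay 233 bp downstream of its outer gene end and 26 bp downstream of its inner listed start. The call at 57520948 was the divergent partner of the DDIT3 call, 436 bp away. A forward call at 57522404 lay 420 bp upstream of the inner MBD6 start. The remaining reverse calls at 57522612 and 57522290 lay 2095 and 1773 bp upstream of DDIT3. The former was 238 bp from the forward call at 57522850, and the latter 114 bp from that at 57522404, both in the divergent position.

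The eIF2 phosphatase subunits were unlike each other. PPP1R15A, the stress-induced subunit (chromosome 19, 48872421 to 48876058, forward strand), had 6 calls, and PPP1R15B, the constitutive one (chromosome 1, 204395826 to 204411817, reverse strand), had 1. The PPP1R15A start was called at 48872421, an offset of 0 bp, and that of PPP1R15B at 204411816, 1 bp downstream. Inside PPP1R15A, reverse calls lay at 48873043 and 48873565, 622 and 1144 bp from the start, and a forward call at 48873796, 1375 bp from it. The second reverse and this forward call formed a divergent pair 231 bp apart within the gene. Past its end, forward calls lay at 522 and 990 bp. PPP1R15B had no other call inside the gene, and the nearest call of either strand on the chromosome was 94704 bp away.

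TRIB3, an inhibitory pseudokinase induced by ATF4 and CHOP, lies on chromosome 20 from 380760 to 397559 on the forward strand. It was the member whose call fitted the annotation least well. The forward call at 381054 lay 294 bp downstream of the outer gene end and 241 bp upstream of the nearest start in the promoter table, 381295. A reverse call at 382006 lay 952 bp further into the gene and faced it. No other call lay in or near TRIB3.

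Measured from the nearest listed start of any kind, 7 of the 10 members were called within 5 bp and 9 within 21 bp, all but TRIB3. Over 8921 called genes, 46.4% were called within 5 bp and 68.2% within 21 bp. These were measured from promoter table starts, or from the outer start without an entry, by calls within 500 bp. The members have the same nearest offsets under that rule. The median offset was 0.5 bp for the members and 1 bp over all called genes (quartiles -1 and 19 bp). The choice of start mattered for ATF5, which moved from 298 to -1 bp between the outer and the nearest listed start.

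A divergent partner within 1000 bp upstream was found for the promoter calls of 5 members: EIF2AK1, EIF2AK2, EIF2AK4, ATF4 and DDIT3. Of 8288 called genes whose strand was resolved, 67.3% had one (interval 66.2 to 68.3%). With partners sought within 500 or 2000 bp, the members paired were also 5, against 65% and 67.8%. Within 500 bp ATF4 was paired only through its call 268 bp upstream of the gene, 265 bp from the partner. The call at its annotated start lay 538 bp from it. The median distance was 148 bp in the 5 members and 169 bp in 5575 paired genes (quartiles 112 and 263 bp). The 3 kinase genes lay at 102, 118 and 148 bp, below that median. DDIT3, at 436 bp, lay far out in the distribution, with 5.85% of paired genes having a longer distance.

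**Figure D2:**
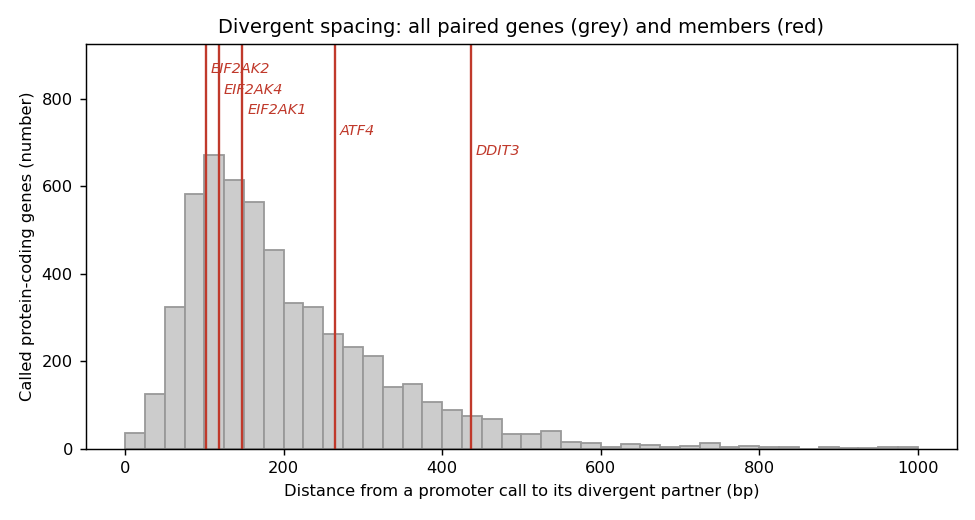
Distance in bp from a promoter call to its divergent partner, as a histogram in bins of 25 bp over 5575 paired protein-coding genes (grey), with the 5 paired members as red lines. EIF2AK2, EIF2AK4 and EIF2AK1 fall near the peak at 102, 118 and 148 bp. ATF4, measured from its upstream call, lies at 265 bp and DDIT3 at 436 bp.

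Unpaired by the outer start were EIF2AK3, ATF5, PPP1R15A, PPP1R15B and TRIB3. When calls within 500 bp of any listed start were used, EIF2AK3 (467 bp) and ATF5 (118 bp) were paired too, giving 7 members against 68.3% of called genes. The ATF5 pair came from the forward call at 49929594, whose assignment to ATF5 or NUP62 was not resolved by position. The ATF5 call next to a listed start, at 49929204, had no divergent partner within 1000 bp. PPP1R15A, PPP1R15B and TRIB3 had no divergent partner under either choice. No partner was found for 32.7% of called genes.

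Opposite-strand calls inside the gene were found in 5 members, EIF2AK3, ATF5, DDIT3, PPP1R15A and TRIB3, against 30.8% of called genes. In EIF2AK3 and ATF5 these calls lay within 500 bp of the start of a neighbouring gene. In DDIT3, PPP1R15A and TRIB3 they did not, which left 3 members against 25% of called genes. Among 856 called genes of at most 5000 bp, 5.02% held 2 or more opposite-strand calls, those near other listed starts included. DDIT3 with 3 and PPP1R15A with 2, both shorter than that limit, were among them, and ATF4 had 0.

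More than 1 call on the gene strand, counted in the gene and up to 500 bp upstream, was found in EIF2AK3, ATF4, ATF5 and PPP1R15A, each with 2. The share over called genes was 27%. The other 6 members had 1 call each.

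**Figure D3:**
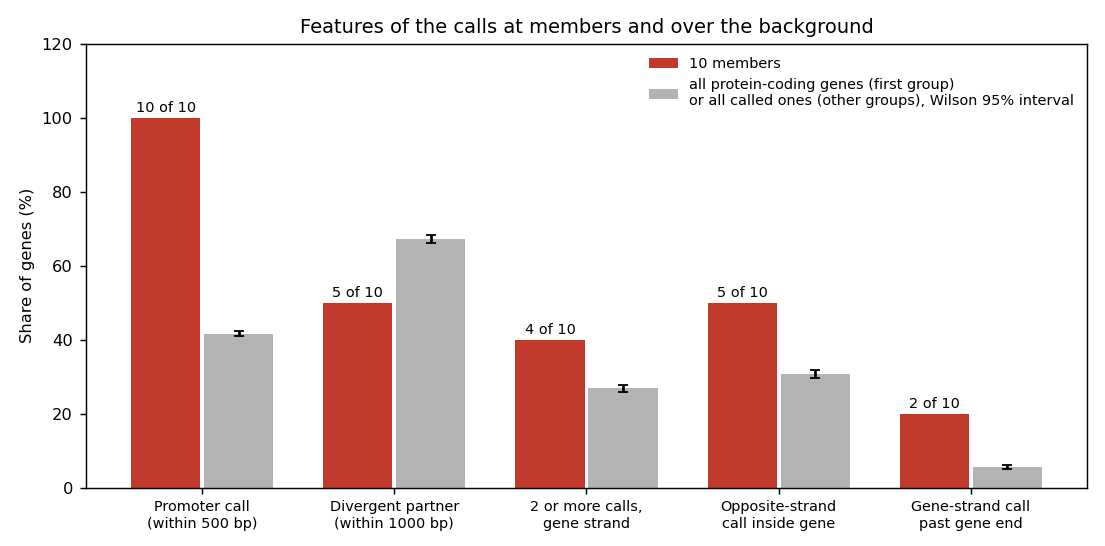
Share in percent of the 10 members (red) and of the background (grey) with each feature of the calls. The background is all 19974 protein-coding genes for promoter calls and 8288 called genes for the rest, with Wilson 95% intervals as bars. The members' shares stand at 10, 5, 4, 5 and 2 of 10, and with 10 genes each member moves a share by 10 percentage points.

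Calls past the gene end were found in ATF4 and PPP1R15A, with 3 and 2 gene-strand calls within 1000 bp. Of all called genes, 5.55% had at least 1 such call. The share was higher among short genes: 16.2% of the 856 called genes of at most 5000 bp had 1 or more, 7.83% had 2 or more and 2.1% had 3 or more. ATF4 and PPP1R15A both belong to these short genes, whereas DDIT3, the other member below the limit, had 0. Whether RNA starts at these calls was not tested.

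Among the 9 members with a sequence, ATF4 and PPP1R15A were also those whose promoter windows held a TATA box. This core promoter element fixes the start a short distance downstream. For some calls, among them the TRIB3 call and the outer EIF2AK3 call, the windows did not reach the bases where a box would lie. A box there was not looked for. The motif TATAAA began 32 bases before the called base in ATF4 and 30 bases before it in PPP1R15A. Of 34943 promoter windows of 300 bases in the RefSeq table, 11.6% held it on either strand. In a wider count over 6845 genes with a call in a promoter window, 113 genes (1.65%) had TATAAA beginning 24 to 36 bases before a call. Among those of at most 5000 bp, 30 of 54 genes with the box in that place had a call within 1000 bp past their end, against 78 of 597 without it, that is 55.6% against 13.1%. These counts describe 1 list of calls. They include ATF4 and PPP1R15A themselves, and past-end calls near the listed start of another gene were not left out. The comparison was chosen after the 2 members had been seen, and depth and expression level were not available to set beside it.

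Other motifs were searched on both strands of the same windows, as exact letters, and a match is not evidence of binding. For these motifs and the TATA box, a member was counted when any of its windows held the motif. Some members had several windows, whereas the shares are over single windows, so the 2 are not in the same unit. PPP1R15A held the full cAMP response element TGACGTCA, bound by CREB and ATF factors, 58 bases before its called base. It was present in 1.84% of all windows. The shorter TGACG, which overlaps the full element, was found in ATF4, ATF5, PPP1R15A and PPP1R15B, against 24.5% of windows. The ATF5 match lay only in the window of the uncalled start at 49930245, 458 bases downstream of the nearest gene-strand call. CCAAT, the box bound by NF-Y, occurred in EIF2AK2, EIF2AK3, DDIT3 and PPP1R15B, against 34.6%. EIF2AK2 carried 2 copies 10 bases apart. EIF2AK3 carried 4, with 2 on each strand. The AP-1 site TGACTCA was found in DDIT3, beginning 243 bases before the call, and in ATF5 in the window of its outermost start, against 4.96%. CACGTG, the E-box, was found in ATF4 and EIF2AK2, against 7.23%.

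PPP1R15B held GCCATNTT, a YY1 site, directly over its start, with the first base of the motif 4 bases before the called base. It was found in 6.57% of windows. TGATGNAA, the composite element of ATF4 and C/EBP factors, was found in PPP1R15B, 228 bases before the call, against 3.62%. The GATA site AGATAA was in the windows of 0 of the 9 members with a sequence and in 10.4% of all windows. For calls such as the TRIB3 call and the outer EIF2AK3 call, the bases upstream lay almost wholly outside the windows. They were not searched for this or any other motif.

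The rest of the pathway was read from lists of 63 further genes, of which 48 (76.2%) had a promoter call, against the 41.6% of all protein-coding genes. A divergent partner was found for 35 of the 48, against 67.3% of all called genes. All 7 activators and inhibitors of the kinases were called. They included DELE1 and OMA1, which relay mitochondrial stress to HRI, at -10 and 55 bp, and GCN1, the activator of GCN2, at 5 bp with 3 calls on its strand. All 4 factors of reinitiation on mRNAs such as that of ATF4 (DENR, MCTS1, EIF2D and EIF2A) were called as well. MCTS1 was called at -1 bp from its outer start but had no call within 500 bp of a start in the promoter table. Of the subunits of eIF2 and its exchange factor eIF2B, 6 of 8 were called. EIF2S3, the gamma subunit of eIF2, and EIF2B4 were not called and had 1 call each on the opposite strand in or near the gene.

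Of the ATF4 target transporters, 7 of 8 were called (87.5%), against 41.6% of all protein-coding genes. SLC7A11, the cystine exchanger, and SLC7A5, the large neutral amino acid transporter, had an offset of 0 bp, and SLC38A2, a glutamine transporter, had one of -1 bp. The other transporter, SLC1A4, was called 1 bp upstream of an inner listed start. Of the amino acid and one-carbon enzymes, 7 of 12 were called (58.3%), among them PSAT1, SHMT2 and CTH at 0 bp. PHGDH, which opens serine synthesis, CBS, GPT2 and ALDH1L2 had 0 calls on either strand in or within 500 bp of the gene. ASNS, asparagine synthetase, had 2 calls on its strand, 1 of them 1 bp upstream of an inner listed start, and none at the outer one.

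The regulators and secreted factors downstream of ATF4 and CHOP had 7 of 13 members called (53.8%), against 41.6% of all protein-coding genes. DDIT4, an inhibitor of mTORC1, CHAC1, a glutathione-degrading enzyme, and GDF15, a stress cytokine, were each called at -1 bp. ATF3 was not called at its outer start and had 1 call on its strand elsewhere in the gene. NUPR1, VLDLR, STC2, FGF21 and JDP2 had 0 calls in or near the gene. In the other arms of the unfolded protein response 10 of 11 genes were called, including the sensors ERN1 (IRE1) and ATF6 at 3 and 4 bp and the chaperone HSPA5 (BiP) at -1 bp. EDEM1 was the exception, with 0 calls.

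**Figure D4:**
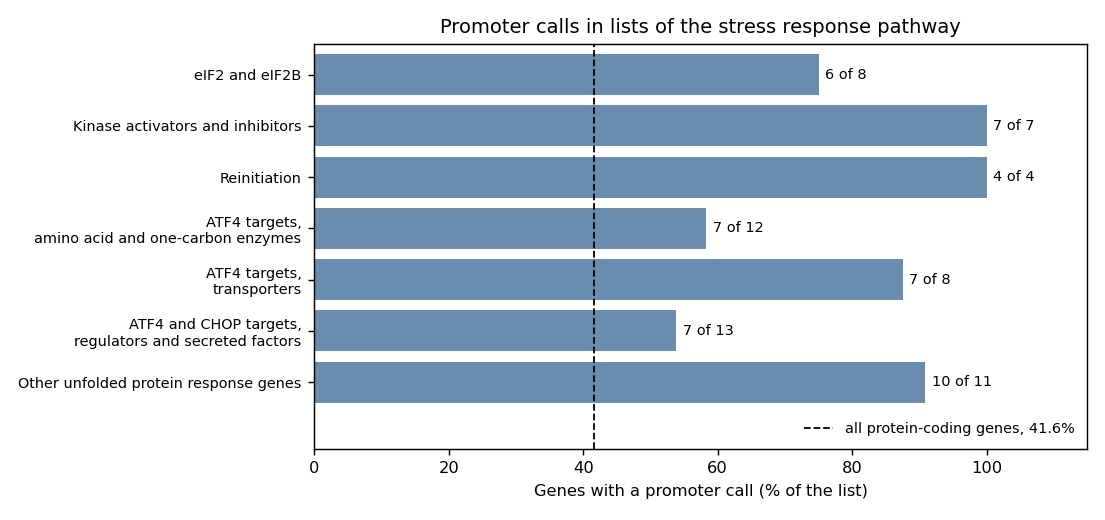
Share in percent of the genes with a promoter call in each of 7 lists of the stress response pathway, with the count beside each bar and the share of all protein-coding genes, 41.6%, as a dashed line. All 7 shares lie above the line, lowest in the ATF4 and CHOP targets (7 of 13) and the amino acid and one-carbon enzymes (7 of 12).

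By calls on the gene strand, the list was led by DDIT4 with 7, SLC1A5, a glutamine carrier, with 5, SLC3A2, the heavy chain shared by several amino acid exchangers, with 4, and GCN1 and SLC38A2 with 3 each. Gene-strand calls within 1000 bp past the end were found in 7 of the 48 called list genes, against 5.55% of all called genes and 16.2% of those of at most 5000 bp. DDIT4 had 3, as many as ATF4, SLC3A2 had 2, and SLC1A5, SLC38A2, SLC7A1, CHAC1 and CALR had 1 each. None of them lay within 500 bp of another listed start.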

How the data were processed

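The sites analysed were deposited as 2 lists of 1-base intervals, which per the file headers the authors called with TSScall on 1 sorted, de-duplicated HUDEP-2 alignment. Per the submitters' processing notes reads were handled on hg38 with SAMtools 1.17, deepTools 3.5.4, Picard and BWA 0.7.16a. TSScall's version and read minimum were not given in the sources used here. The score column deposited by the authors was 0 in every row and was not used, so no depth or level could be given. Positions are the end coordinates, read as 1-based.

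Genes, matched by primary symbol, came from RefSeq GRCh38.p14, and strands and listed starts from its promoter table, which held 9 of the 10 members and 15813 of 19974 protein-coding genes. Other genes were tried at both ends and took the strand of the end that was called, and 27 called at both were left out of counts by strand. The motifs and the comparison with calls past gene ends were chosen after seeing the data. The members and pathway lists were chosen with earlier results of these data known. Genes named were the members, their called neighbours, and, of the lists, uncalled members and the 5 with most calls; other list genes were named after their values were seen. The counting of calls and pairs was tested on simulated calls at 10657 genes. Counts used pandas 2.3.3 and numpy 2.4.6, intervals scipy 1.17.1 and figures matplotlib 3.10.9, under Python 3.11.15.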

Additional observations from a re-analysis of the deposited data

How the results depend on the processing

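The 10 members with a promoter call became 8 with a window of 100 bp and remained 10 in number with 1000 bp, with any gene-strand call in the gene and with listed starts. The 39 calls became 35 within 2 kb and 30 with calls within 500 bp counted as 1. Paired members numbered 5 with windows of 500, 1000 and 2000 bp and 7 with listed starts. The pathway count ranged from 45 to 51 of 63. Members with a call past the gene end fell from 2 to 1 with a window of 500 bp, since the PPP1R15A calls lie farther out. Members with an opposite-strand call inside the gene fell from 5 to 3 without calls near other listed starts. The windows past the gene end, the listed starts (except for the offsets) and the last alternative were chosen after seeing the data. No paired analysis was possible because the lists have no column per library, and for the same reason no library could be left out. Which of the libraries gave the calls is not known. Unknown depth means that an uncalled gene is not shown to be silent.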
